A study of Mus musculus with 6 samples.

Results

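The collagen genes of mouse liver were followed through weeks 0, 2 and 7 of a treatment. Members were the protein-coding genes of the GENCODE M21 annotation whose symbol is Col, digits, the letter a and digits, which gave 44 of the 54446 genes in the deposited count table. They were grouped as 11 fibrillar chains, 6 type IV chains of basement membranes and 27 others. The rule uses gene names and no measured value.

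Poly-A RNA of liver cells was sequenced from 2 libraries at each of weeks 0, 2 and 7 (6 in all). The series title names the treatment as MET/CAT with SB transposase, an enzyme that inserts a DNA segment into chromosomes. The labels give no dose, route, sex or age and do not expand CAT. Week 0 replicate 1 is labelled as coming from mice that mix FVB/N with C57BL/6, while the same label of the others has C57BL/ followed by a different number in each, so their strain is unsure. Untreated mice of weeks 2 and 7 were not analysed here. Nothing in the labels says whether the libraries of a week came from separate animals, so p-values measure only the spread between these libraries.

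A difference in sex runs along with week 2. Xist, which coats the inactive X chromosome of females, had 13236 and 12804 deposited counts in the libraries of week 2 and at most 15 elsewhere, while the Y-linked gene Ddx3y had 0 counts in both week 2 libraries and at least 1897 in the others. In every comparison with week 2, sex and time cannot be told apart, and only week 7 against week 0 compares libraries of the same typed sex. Any difference in age or background goes with the week in all comparisons. Library totals ran from 49353453 to 58434358 deposited counts.

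Collagens are secreted or membrane proteins built from 3 chains that wind into a triple helix, with glycine at regular steps along each chain. Fibrillar collagens assemble into the banded fibers that give tissue its tensile strength and that make up most of a liver scar. Type IV collagen forms the mesh of basement membranes, and the remaining types decorate fibrils, form beaded filaments, or anchor cells. In liver, hepatic stellate cells and portal fibroblasts are the usual source of fibrillar collagen, and endothelium and bile duct cells are among the cells that lay down type IV collagen. Hepatocytes are known to make type XVIII collagen, whose C-terminal fragment is endostatin.

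Of the 44 genes, 8 had 0 counts in all 6 libraries: Col2a1, Col6a4, Col9a1, Col9a2, Col10a1, Col19a1, Col22a1 and Col28a1. A further 5 (Col4a6, Col9a3, Col11a1, Col24a1 and Col25a1) had counts but did not pass the filter on low counts, and their highest value in any library was 0.400 CPM. The other 31 were tested. Levels are TMM-scaled counts per 1000000 counts of library size (CPM), and changes are edgeR quasi-likelihood log2 fold changes with standard error (SE), called at a Benjamini-Hochberg adjusted p under 0.05 over 15368 genes. Zeros on the list of 44 are limits of this depth: 12 counts per library, or about 3 read pairs, correspond to 0.245, 0.201 and 0.228 CPM in weeks 0, 2 and 7, which covers counting error only.

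At week 2 against week 0, 14 collagen genes rose and 1 fell. The type I and III chains, Col5a1, Col5a2 and the major type IV pair were among those that rose. The 15 calls made up 48.4% of the 31 tested collagen genes, and the 14 higher ones 45.2%, where 18.6% of all tested genes were called, 9.81% higher and 8.81% lower. At week 7 against week 0, 4 rose and 4 fell, 25.8% of the tested collagen genes, beside 13.8% of all tested genes (7.58% higher and 6.23% lower). At week 7 against week 2, 12 were lower and 4 higher, 51.6% of those tested, beside 19.8% of all tested genes (9.73% lower and 10.1% higher). The median log2 fold change of the 31 genes was 0.99 at week 2 against week 0, 0.14 at week 7 against week 0 and -0.96 at week 7 against week 2, and over all tested genes it was 0.014, 0.0016 and -0.0042. The 31 genes passed a filter that any one week could satisfy, so these are descriptions of the genes that could be tested, not of all 44. The comparisons share libraries and do not support one another.

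**Figure D1:**
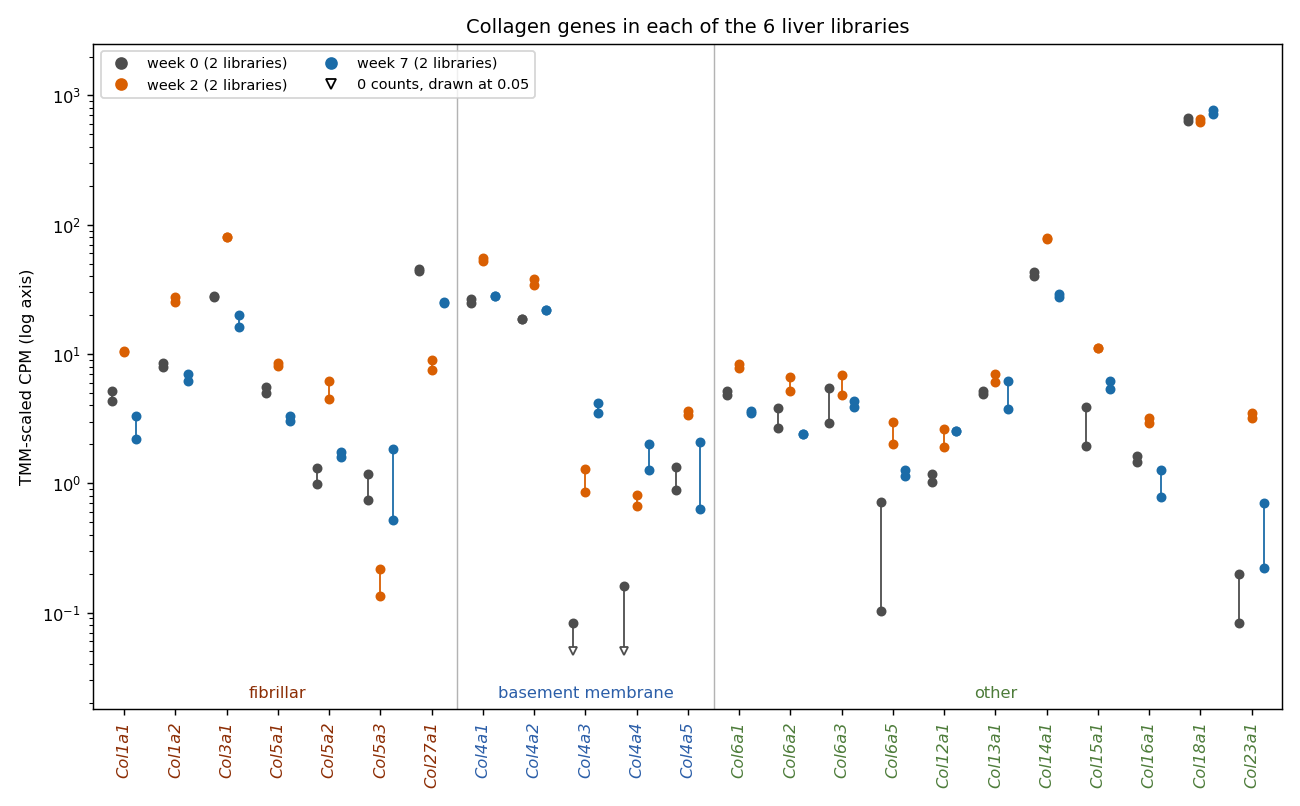
Each point is one library's level (TMM-scaled CPM, log axis) of the 23 collagen genes that averaged 1 CPM or more or were called, in the order fibrillar, basement membrane, other; lines join the 2 libraries of a week and open triangles mark 0 counts. Orange week 2 points lie above the gray week 0 points for most genes and below them for Col27a1 and Col5a3, and Col18a1 stands above all others in every library.

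**Figure D2:**
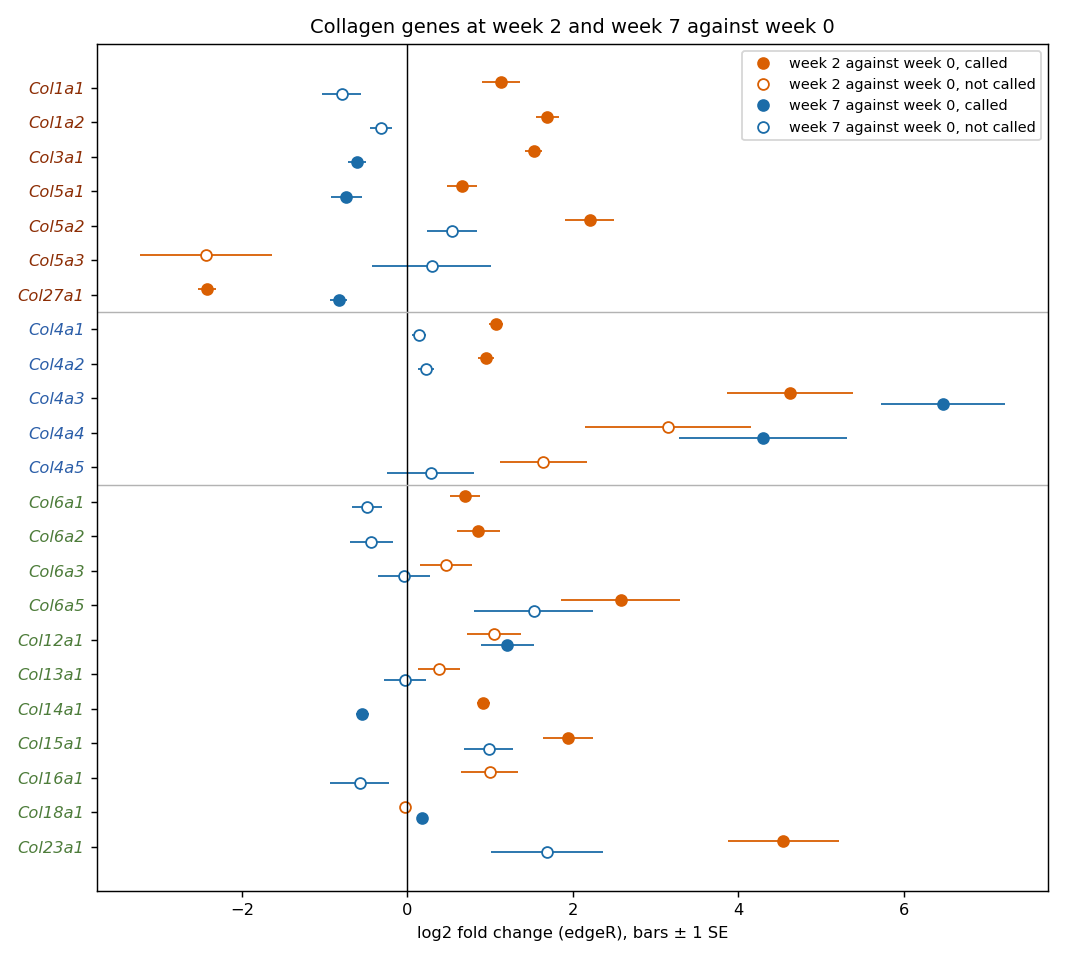
Points are edgeR log2 fold changes of the same 23 genes at week 2 (orange) and week 7 (blue) against week 0, with bars of 1 SE; filled points passed the adjusted p threshold and open points did not. Both sets share the week 0 libraries.

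Collagen mRNA of these livers was dominated by Col18a1, the type XVIII chain of the basement membrane zone. Its level was 636 and 669 CPM in the week 0 libraries, 622 and 658 in those of week 2, and 765 and 715 in those of week 7. Weeks 0 and 2 overlapped, and both week 7 libraries lay above them. Its share of the summed collagen level was between 63.4% and 81.6% across libraries. Per kilobase of transcript, with lengths from GENCODE M21, Col18a1 averaged 121 CPM per kb over the 6 libraries, against 7.64 for Col14a1, 7.54 for Col3a1, 5.40 for Col4a1, 3.97 for Col4a2, 3.40 for Col27a1 and 2.58 for Col1a2. Among fibrillar transcripts Col3a1 led per length at week 2 only, since Col27a1 stood above it at week 0 (5.84 against 4.98 CPM per kb) and level with it at week 7 (3.28 against 3.27). Col1a1, the main chain of scar collagen, had 1.01 CPM per kb over the 6 libraries.

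The change of Col18a1 was small at every step. Its log2 fold change was 0.18 ± 0.046 (SE) at week 7 against week 0 (edgeR adjusted p = 0.0326) and 0.21 ± 0.046 at week 7 against week 2 (adjusted p = 0.0130), and -0.03 at week 2 against week 0 (adjusted p = 0.748), where the sign turned positive with total counts only (0.063) and with upper-quartile scaling (0.0025). The week 7 against week 0 call was lost without week 0 replicate 1 or 2 or week 7 replicate 1 (adjusted p between 0.0539 and 0.179), with limma voom (0.0502) and with only the 4 libraries compared (0.0505). The week 7 against week 2 call was lost without week 2 replicate 1 or week 7 replicate 1 (0.108 and 0.0784) and with total counts only (0.0794).

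**Figure D3:**
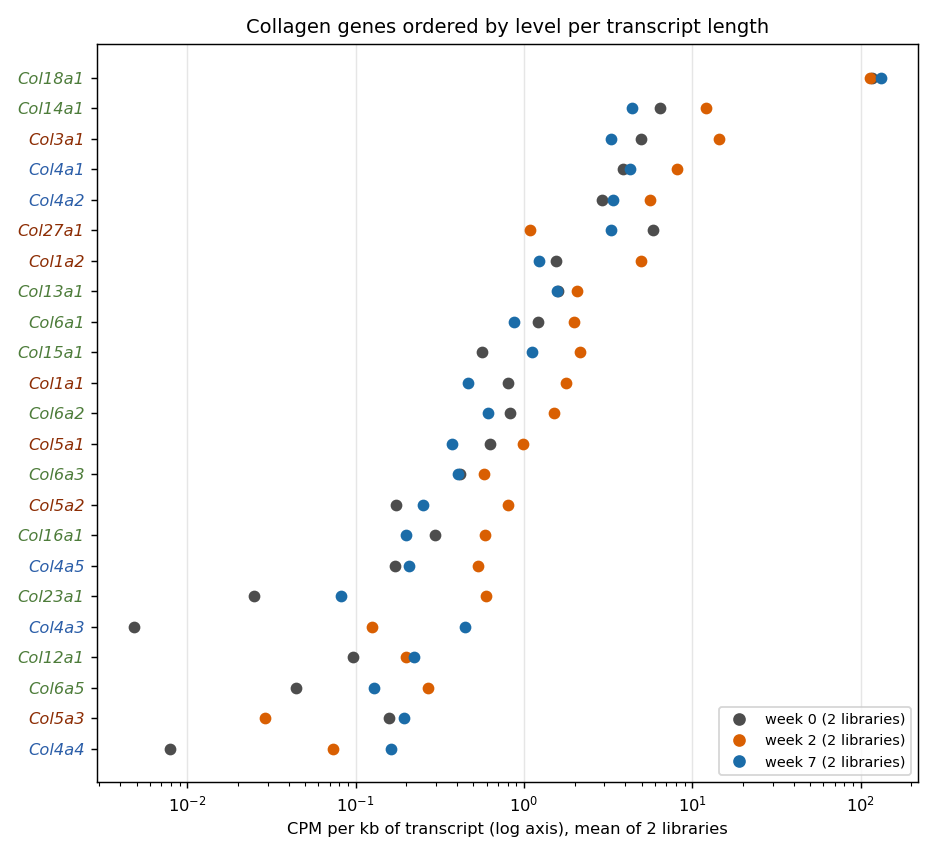
Levels are CPM per kb of transcript (log axis, mean of 2 libraries per week), for the 23 collagen genes ordered by their mean over all libraries. Col18a1 lies at 114 to 132 in each week, and the next genes, Col14a1 and Col3a1, at 3.27 to 14.4.

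Of the fibrillar collagens, the type III chain had the highest level per length at week 2, at 14.4 CPM per kb. Col3a1 (ENSMUSG00000026043), the chain of reticular fibers in the space of Disse, had 28.0 and 27.4 CPM in the week 0 libraries, 80.0 and 79.7 in those of week 2, and 16.2 and 20.1 in those of week 7. The 3 weeks did not overlap. It rose 2.88-fold at week 2 (log2 1.53 ± 0.106, edgeR adjusted p = 1.47e-05) and was 1.53-fold lower at week 7 than at week 0 (log2 -0.61 ± 0.105, adjusted p = 0.00588). The type I pair, whose chains form the thick fibers of scar and bone, followed the rise. Col1a2 (ENSMUSG00000029661) had 7.97 and 8.48 CPM in the week 0 libraries, 25.4 and 27.7 in those of week 2, and 7.02 and 6.18 in those of week 7. Both week 2 libraries were above all others, and it rose 3.23-fold (log2 1.69 ± 0.136, adjusted p = 3.90e-05) while week 7 against week 0 was not called (log2 -0.32 ± 0.136, adjusted p = 0.173).

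Col1a1 (ENSMUSG00000001506) had 4.37 and 5.20 CPM in the week 0 libraries, 10.6 and 10.3 in those of week 2, and 3.32 and 2.19 in those of week 7. It rose 2.19-fold at week 2 (log2 1.13 ± 0.229, edgeR adjusted p = 0.00903), a call lost without week 0 replicate 1 (adjusted p = 0.0583) or week 2 replicate 1 (0.0547). Its level at week 7 lay below week 0 in both libraries without a call (log2 -0.80 ± 0.235, adjusted p = 0.0576), and this difference was called with DESeq2 (0.0340), with no filter (0.0340) with upper-quartile scaling (0.0496) and without week 7 replicate 1 (0.0331). Type I collagen protein holds more alpha1 than alpha2 chains, but per transcript length Col1a1 stood at 0.494 and 0.553 times Col1a2 in the libraries of week 0, 0.377 and 0.335 in those of week 2, and 0.426 and 0.320 in those of week 7.

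Of the type V chains, which seed and limit the width of type I fibrils, Col5a1 and Col5a2 were called higher at week 2. Col5a3, at low counts, was not called against week 0. Col5a2 (ENSMUSG00000026042) went from 1.30 and 0.995 CPM at week 0 to 6.14 and 4.46 at week 2, a 4.61-fold rise (log2 2.20 ± 0.297, edgeR adjusted p = 0.000966), and to 1.74 and 1.60 at week 7. Col5a1 (ENSMUSG00000026837) had 5.53 and 4.997 CPM in the week 0 libraries, 8.57 and 8.05 in those of week 2, and 3.02 and 3.29 in those of week 7. Its 3 weeks did not overlap, and the log2 fold change was 0.66 ± 0.183 at week 2 (adjusted p = 0.0375) and -0.74 ± 0.188 at week 7 (adjusted p = 0.0326), both against week 0. The week 2 call of Col5a1 was lost without any one of the 4 libraries compared (0.087 to 0.176), and its week 7 call without any one of the 6 libraries (0.062 to 0.137), with limma voom (0.0556) and with only the 4 libraries compared (0.0723).

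Per transcript length, the ratio of Col5a1 to Col5a2 was 3.35 and 3.96 in the libraries of week 0, 1.10 and 1.42 in those of week 2, and 1.37 and 1.61 in those of week 7. Col5a3 (ENSMUSG00000004098), the chain of low abundance, had 0.741 and 1.18 CPM in the week 0 libraries, 0.217 and 0.135 in those of week 2, and 0.519 and 1.84 in those of week 7. Weeks 0 and 7 overlapped and week 2 was lowest in both libraries. It was not called at week 2 against week 0 (log2 -2.43 ± 0.793, edgeR adjusted p = 0.0659), though it was with DESeq2 (0.0257), with no filter (0.0476) and without week 7 replicate 1 (0.0367). Week 7 against week 2 was called (log2 2.73 ± 0.796, adjusted p = 0.0427), and the call was lost when week 0 replicate 2, either week 2 library or week 7 replicate 2 was left out (0.0533 to 0.334; log2 1.55 without the last of these), with limma voom (0.198) and with only the 4 libraries compared (0.0636).

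Col27a1 (ENSMUSG00000045672), a fibrillar chain known from cartilage, moved opposite to these chains at week 2. It had 43.8 and 45.1 CPM in the week 0 libraries, 7.59 and 8.98 in those of week 2, and 24.9 and 25.1 in those of week 7. Its 3 weeks did not overlap, with week 2 lowest. It fell 5.37-fold at week 2 (log2 -2.42 ± 0.112, edgeR adjusted p = 9.24e-07) and 1.78-fold at week 7 (log2 -0.83 ± 0.106, adjusted p = 0.00116), both against week 0. At week 2 its level per length was 1.09 CPM per kb, against 14.4 for Col3a1. It was the single collagen gene called lower at week 2 against week 0.

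Since Col27a1 weighed on the class sum, the sum is given with and without it. All 11 fibrillar genes together had 92.5 and 93.6 CPM in the week 0 libraries, 139 and 140 in those of week 2, and 57.4 and 60.6 in those of week 7. Without Col27a1 the sums were 48.7 and 48.5, 131.6 and 130.8, and 32.6 and 35.5 CPM, so week 2 was 2.70-fold above week 0, and week 0 was 1.43-fold above week 7. The other fibrillar genes, Col2a1, Col11a1, Col11a2 and Col24a1, had at most 0.722 CPM in any library.

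The stretches before the start sites of 3 genes that moved in different ways are shown as background to these values: Col3a1 and Col15a1 rose at week 2 and Col27a1 fell. Each holds the 150 bases before the RefSeq start, 5′ to 3′ on the strand of the gene, in build GRCm38.p6, with no annotated exon base within them. Capitals mark TATAAA, the core of a TATA box, or GGGCGG, the core of a GC box, each on either strand.
Col3a1 (chr1:45311388-45311537, plus strand): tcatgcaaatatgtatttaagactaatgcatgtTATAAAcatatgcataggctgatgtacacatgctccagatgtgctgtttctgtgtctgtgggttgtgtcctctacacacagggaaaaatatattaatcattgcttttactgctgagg
Col15a1 (chr4:47207862-47208011, plus strand): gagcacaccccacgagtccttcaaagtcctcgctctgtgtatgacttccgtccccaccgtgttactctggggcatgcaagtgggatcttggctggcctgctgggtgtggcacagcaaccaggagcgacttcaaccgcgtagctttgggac
Col27a1 (chr4:63215262-63215411, plus strand): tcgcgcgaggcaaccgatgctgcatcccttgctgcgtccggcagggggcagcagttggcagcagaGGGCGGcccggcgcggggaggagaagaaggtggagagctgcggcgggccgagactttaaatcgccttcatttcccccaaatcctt
TATAAA lies 117 to 112 bases before the start of Col3a1 and GGGCGG 85 to 80 bases before that of Col27a1, and neither was in the Col15a1 stretch. Over the 250 bases before a start, GGGCGG was present in 22 of 38 windows of 35 matched collagen genes (57.9%) and in 32.7% of all 32851 RefSeq windows, TATAAA in 13.2% and 12.4%, CCAAT in 34.2% and 33.8%, and CAGACA, a Smad-binding string, in 23.7% and 17.1%. Both strands were searched, no motif is part of another, and 18 of the 38 windows hold exon bases. Median GC content was 59.0% in the collagen windows and 52.4% in all. A match is a string of letters and not a site.

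Type IV collagen genes lie in pairs, and the pairs behaved differently. Col4a1 and Col4a2, the ubiquitous chains found under sinusoids, vessels and ducts, both rose at week 2. Col4a1 (ENSMUSG00000031502) had 24.6 and 26.4 CPM in the week 0 libraries, 51.9 and 55.1 in those of week 2, and 28.1 and 28.1 in those of week 7. Col4a2 (ENSMUSG00000031503) had 18.7 and 18.7, 34.4 and 38.1, and 21.9 and 21.8 CPM in weeks 0, 2 and 7. In both genes the 3 weeks did not overlap. The rise at week 2 was 2.10-fold for Col4a1 (log2 1.07 ± 0.0849, edgeR adjusted p = 3.55e-05) and 1.94-fold for Col4a2 (log2 0.95 ± 0.0964, adjusted p = 0.000171). At week 7 against week 0 the log2 fold changes of 0.14 ± 0.0845 and 0.22 ± 0.0962 were not called (adjusted p = 0.346 and 0.174). The ratio of Col4a1 to Col4a2 per transcript length stayed between 1.25 and 1.47 in the 6 libraries.

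These genes are transcribed away from each other, and their RefSeq starts overlap by 22 bases, shown on the plus strand (the strand of Col4a2) as the place where the pair meets, with GGGCGG in capitals.
Col4a1 and Col4a2 shared start (chr8:11312805-11312826, GRCm38.p6): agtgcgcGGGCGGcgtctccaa
The kit does not mark strand, so reads in such a shared stretch cannot be assigned to either gene. It is short beside transcripts of 6615 and 6450 bases.

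Col4a3 and Col4a4, known as chains of the kidney filter and the eye and ear basement membranes, were near 0 at week 0 and rose to a modest level by week 7. Col4a3 (ENSMUSG00000079465) had 0 and 4 deposited counts in the week 0 libraries, 51 and 76 in those of week 2, and 225 and 179 in those of week 7, or 0 and 0.083, 0.851 and 1.28, and 4.17 and 3.501 CPM. Col4a4 (ENSMUSG00000067158) had 8 and 0, 40 and 48, and 108 and 65 counts, or 0.1603 and 0, 0.667 and 0.810, and 2.00 and 1.27 CPM. In both genes the weeks did not overlap, and the order was week 0, week 2, week 7, unlike that of Col4a1 and Col4a2, whose highest week was week 2.

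At an assumed 4 deposited counts per read pair, Col4a3 rested on 101 read pairs at week 7 and 1 at week 0. The ratio was 94.3, with an exact 95% counting interval of 16.5 to 3761 under that assumption. For Col4a4 it was 43 against 2, a ratio of 20.1 (5.23 to 171). Col4a3 rose from week 0 to week 7 with a log2 fold change of 6.47 ± 0.752 (edgeR adjusted p = 0.000708) and Col4a4 with 4.30 ± 1.02 (adjusted p = 0.0247). Each gene had 0 counts in 1 week 0 library, and these values moved with the week 0 library left out: without replicate 1 they were 5.49 for Col4a3 and 9.48 for Col4a4, and without replicate 2 they were 10.7 and 3.33. The size of either change is therefore poorly fixed, although both stayed positive and called in those fits. The Col4a4 call was lost without week 7 replicate 1 (0.126) or 2 (0.0628) and with limma voom (0.0955). Week 2 against week 0 was called for Col4a3 (log2 4.63 ± 0.761, adjusted p = 0.00306; 0.0918 with limma voom; log2 8.87 without week 0 replicate 2) and not for Col4a4 (log2 3.15 ± 1.003, adjusted p = 0.0610; 0.00931 with DESeq2, 0.0376 with no filter, 0.0399 with counts divided by 4 and 0.00729 without week 0 replicate 1). The further rise of Col4a3 from week 2 to week 7 (log2 1.84 ± 0.522, adjusted p = 0.0380) lost its call when any of the 4 libraries compared was left out (0.0971 to 0.192).

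In the annotation, 71 bases without any exon separate the start of Col4a4 from the first exon of Col4a3, which is transcribed the other way. They are printed on the strand of Col4a4 because they lie upstream of both genes of this pair; neither TATAAA nor GGGCGG was in them.
Col4a3 to Col4a4 gap (chr1:82586850-82586920, minus strand, GRCm38.p6): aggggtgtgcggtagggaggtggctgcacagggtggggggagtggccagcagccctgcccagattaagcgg
A noncoding gene on the other strand, C430014B12Rik, shares 563 exon bases with Col4a3. It had 1.94 and 1.99 CPM in the week 0 libraries, 1.53 and 2.68 in those of week 2, and 0.704 and 0.998 in those of week 7, so its level was lowest at week 7, where Col4a3 was highest. Without strand marks, reads in the shared bases could belong to either gene. Shorter exon overlaps with other genes exist for Col3a1 (141 bases, Gm47302), Col5a1 (113 and 99 bases, Gm13372 and 2810430I11Rik), Col4a2 (43 bases, Gm15419) and Col15a1 (14 bases, Gm12426).

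The X-linked pair was uneven too. Col4a5 (ENSMUSG00000031274) had 1.34 and 0.892 CPM in the week 0 libraries, 3.40 and 3.60 in those of week 2, and 0.630 and 2.09 in those of week 7. Both week 2 libraries were above all others, and week 7 spanned week 0. It was not called at week 2 against week 0 (log2 1.64 ± 0.525, edgeR adjusted p = 0.0644), though it was with DESeq2 (0.0382), no filter (0.0475), counts divided by 4 (0.0391), only the 4 libraries compared (0.0134) and without either week 7 library (0.0125 and 0.0159). Col4a6, its neighbor, had at most 4 deposited counts in a library. The 6 type IV genes summed to 44.8 and 46.2 CPM in the week 0 libraries, 91.4 and 98.9 in those of week 2, and 56.7 and 56.8 in those of week 7. Week 2 was thus 2.09-fold and week 7 1.25-fold above week 0. Part of the week 7 difference came from Col4a3 and Col4a4, with means of 0.0415 and 0.0801 CPM at week 0 and 3.83 and 1.64 at week 7. Col4a1 and Col4a2 were not called in that comparison.

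**Figure D4:**
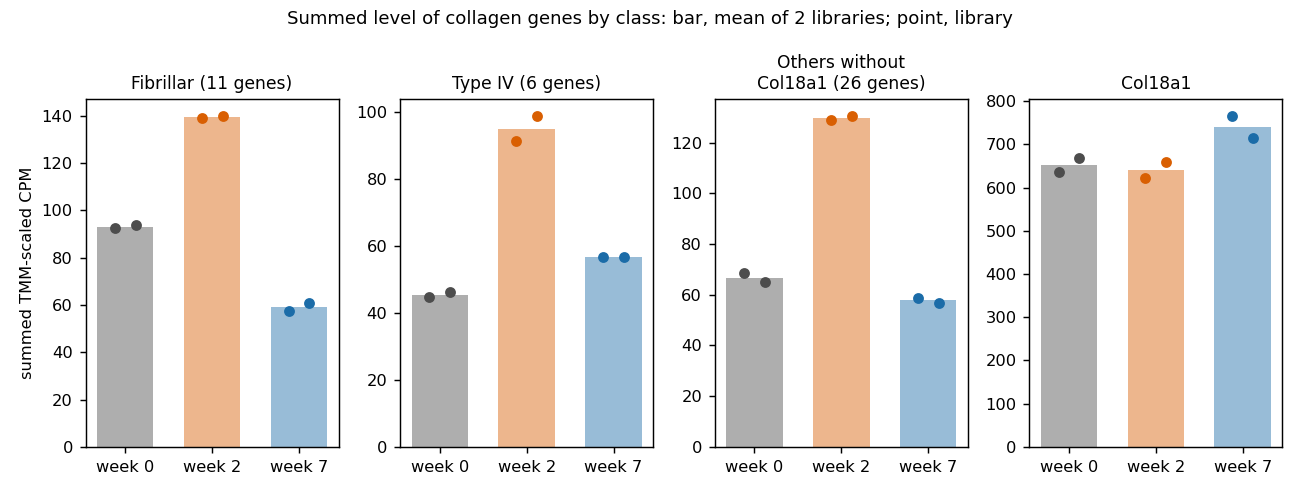
Bars are the mean summed CPM of 2 libraries and points the single libraries, for the 11 fibrillar, the 6 type IV and the 26 other collagen genes without Col18a1, and for Col18a1 alone; each panel has its own axis from 0. Week 2 is highest in the first 3 panels. Week 7 lies below week 0 for the fibrillar genes. It does so too for the 26 others without Col18a1, with 68.5 and 65.0 CPM at week 0 and 58.6 and 56.9 at week 7.

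Fibril-associated collagens, which coat fibrils and link them to other matrix, were led by Col14a1. Col14a1 (ENSMUSG00000022371) had 42.8 and 40.0 CPM in the week 0 libraries, 77.5 and 78.8 in those of week 2, and 27.7 and 29.0 in those of week 7. Its 3 weeks did not overlap. It rose 1.89-fold at week 2 (log2 0.92 ± 0.0759, edgeR adjusted p = 4.59e-05) and fell 1.46-fold at week 7 (log2 -0.54 ± 0.076, adjusted p = 0.00196), both against week 0. This was the same order of weeks as in Col3a1.

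Col12a1 (ENSMUSG00000032332), a fibril-associated chain of dense connective tissue, had 1.02 and 1.18 CPM in the week 0 libraries, 2.63 and 1.92 in those of week 2, and 2.56 and 2.54 in those of week 7. Weeks 2 and 7 overlapped and both lay above week 0. Week 7 against week 0 was called (2.31-fold, log2 1.21 ± 0.325, edgeR adjusted p = 0.0403), a call lost when any one of the 6 libraries was left out (0.0518 to 0.151), with limma voom (0.0739) and with only the 4 libraries compared (0.0534). Col16a1 (ENSMUSG00000040690) had 1.62 and 1.45, 2.90 and 3.22, and 1.28 and 0.782 CPM in weeks 0, 2 and 7. Its fall from week 2 to week 7 was called (log2 -1.57 ± 0.355, adjusted p = 0.0148), a call lost when either week 2 library or week 7 replicate 2 was left out (0.060 to 0.0851).

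Of the type VI chains, which form beaded filaments around cells, Col6a1 and Col6a2 had the order of weeks seen in Col3a1, Col6a3 was called in no comparison, and Col6a6 was highest at week 7. Col6a1 (ENSMUSG00000001119) had 5.17 and 4.79 CPM in the week 0 libraries, 8.34 and 7.82 in those of week 2, and 3.59 and 3.52 in those of week 7. Col6a2 (ENSMUSG00000020241) had 3.83 and 2.70, 6.65 and 5.18, and 2.39 and 2.43 CPM in weeks 0, 2 and 7. Their weeks did not overlap, but week 7 against week 0 was not called (edgeR adjusted p = 0.125 and 0.328). Both rose at week 2 against week 0 (log2 0.70 ± 0.181 and 0.86 ± 0.254, edgeR adjusted p = 0.0279 and 0.0475) and were lower at week 7 than at week 2 (log2 -1.18 ± 0.183 and -1.30 ± 0.258, adjusted p = 0.00219 and 0.00813). Per transcript length Col6a1 was 1.21 to 1.71 times Col6a2.

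These rises at week 2 were close to the threshold. The Col6a1 call was lost without any one of the 4 libraries compared (0.0776 to 0.145). That of Col6a2 was lost without week 0 replicate 2, either week 2 or either week 7 library (0.0645 to 0.262), with limma voom (0.0524) and with only the 4 libraries compared (0.0643), and its week 7 against week 2 call without week 2 replicate 1 (0.0673). Col6a3 (ENSMUSG00000048126), the long chain of the same filament, had 2.93 and 5.49 CPM in the week 0 libraries, 4.80 and 6.82 in those of week 2, and 4.30 and 3.87 in those of week 7. The week 0 libraries lay apart and spanned week 7, and no comparison was called.

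Col6a5 (ENSMUSG00000091345), a chain of restricted expression, had 0.721 and 0.104 CPM in the week 0 libraries, 2.00 and 2.97 in those of week 2, and 1.26 and 1.13 in those of week 7. Week 2 against week 0 was called (log2 2.58 ± 0.721, edgeR adjusted p = 0.0419), a call lost without week 0 replicate 2, either week 2 or either week 7 library (0.054 to 0.176), with limma voom (0.0573) and with only the 4 libraries compared (0.0840). The week 0 libraries held 36 and 5 deposited counts of this gene, so that its fold rests on few read pairs, and without week 0 replicate 1 the log2 fold change was 4.55. Week 7 against week 0 was not called (log2 1.53 ± 0.716, adjusted p = 0.216), but it was without week 0 replicate 1 (0.0155).

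Col15a1 (ENSMUSG00000028339), the second multiplexin besides Col18a1, had 3.89 and 1.93 CPM in the week 0 libraries, 11.1 and 11.2 in those of week 2, and 5.33 and 6.18 in those of week 7. Its 3 weeks did not overlap, with week 7 between the others. It rose 3.84-fold at week 2 (log2 1.94 ± 0.300, edgeR adjusted p = 0.00259). Week 7 against week 0 was not called (log2 0.98 ± 0.298, adjusted p = 0.0657), although DESeq2 called it (0.0316), as did counts divided by 4 (0.0378) and no filter (0.0454). Without week 0 replicate 1, which was the higher of its week, the log2 fold change was 1.58 (adjusted p = 0.00611). Week 7 against week 2 (log2 -0.96 ± 0.288, adjusted p = 0.0506) was not called, but it was with limma voom (0.0186), DESeq2 (0.0258), upper-quartile scaling, total counts only, no filter, only the 4 libraries compared, counts divided by 4 and without either week 0 library.

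Of the transmembrane collagens, Col23a1 (ENSMUSG00000063564) had its highest level at week 2. It had 0.2003 and 0.083 CPM in the week 0 libraries, 3.22 and 3.51 in those of week 2, and 0.222 and 0.704 in those of week 7, or 10 and 4, 193 and 208, and 12 and 36 deposited counts. Week 2 against week 0 was called (log2 4.54 ± 0.670, edgeR adjusted p = 0.00165), as was week 7 against week 2 (log2 -2.86 ± 0.591, adjusted p = 0.00972). The second call was lost without week 2 replicate 1 or 2 (0.0548 and 0.0671). Col13a1 (ENSMUSG00000058806), a plasma membrane collagen of cell contacts, had 4.89 and 5.18, 6.99 and 6.11, and 6.17 and 3.74 CPM in weeks 0, 2 and 7. Its week 7 libraries spanned week 0, and no comparison was called.

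The remaining 8 tested genes (Col6a6, Col7a1, Col8a1, Col8a2, Col11a2, Col17a1, Col20a1 and Col26a1) had means of 0.0905 to 0.929 CPM over all libraries and at most 1.88 in any. None was called in any of the 3 comparisons by edgeR at the settings used throughout, where 3 had an unadjusted p under 0.05 at week 2 against week 0, 2 at week 7 against week 0 and 2 at week 7 against week 2. DESeq2 called 1 and limma voom 0. Col6a6 had 0.100 and 0.746 CPM in the week 0 libraries, 0.550 and 0.540 in those of week 2, and 1.76 and 1.88 in those of week 7, and was highest in both week 7 libraries (edgeR adjusted p = 0.119 against week 0). It was called higher at week 7 than at week 0 with counts divided by 4 and without week 0 replicate 2, and higher than at week 2 with only the 4 libraries compared and without either week 0 library. Col8a2 was called higher at week 2 than at week 0 by DESeq2 and with at least 10 counts required in every library of a week. Col8a2 and Col26a1 had 0 counts in both libraries of week 0, and 34 and 16, and 14 and 30, deposited counts in those of week 2.

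Collagen genes next to each other on a chromosome did not share one pattern. In the RefSeq gene table Col3a1 and Col5a2 are neighbors, as are Col6a1 and Col6a2, and all 4 rose at week 2. The neighbors Col6a5 and Col6a6 were highest in different weeks, as given above.

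The genes that make, cut, bind and degrade collagen were followed in 5 lists of 78 genes, of which 71 were tested. At week 2 against week 0, 20 were higher and 5 lower, or 28.2% and 7.04%. In the comparison of week 7 with week 0, 5 were higher and 12 lower, or 7.04% and 16.9%. These, and the counts of each list below, stand beside the same percentages of all tested genes as for the collagens. Those were 9.81% higher and 8.81% lower at week 2, and 7.58% and 6.23% at week 7.

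Enzymes and chaperones of chain processing did not rise as a list at week 2. Serpinh1 and Crtap had the order of weeks of Col3a1, while P4ha1 and Mia3 were highest at week 0. Crtap was not called at week 7 against week 0 (edgeR adjusted p = 0.577). Of 21 genes 20 were tested, with 1 higher and 3 lower at week 2 against week 0 (median log2 fold change 0.10). Among all tested genes 9.81% were higher and 8.81% lower. At week 7 against week 0, 6 were lower (median -0.29), beside 6.23% of all tested genes. On the higher side 0 were called by edgeR, DESeq2 or limma voom, and 0 had an unadjusted p under 0.05. Serpinh1, the collagen chaperone HSP47, had 14.3 and 16.6 CPM in the week 0 libraries, 18.8 and 24.1 in those of week 2, and 7.47 and 7.26 in those of week 7. Week 2 was not called (edgeR adjusted p = 0.0641) and week 7 was lower than week 0 (2.10-fold, adjusted p = 0.00265). P4ha1, the catalytic subunit of prolyl 4-hydroxylase, fell 1.66-fold at week 2 (adjusted p = 0.0029) and 1.63-fold at week 7 (adjusted p = 0.00523) from 38.2 CPM. Mia3, which loads collagen into transport carriers, fell 1.27-fold at week 2 (adjusted p = 0.00278). Crtap, a subunit of the prolyl 3-hydroxylase complex, rose 1.69-fold at week 2 (adjusted p = 0.012), a call lost without week 0 or week 2 replicate 2 (0.0657 and 0.0869).

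Genes of propeptide removal, fibril assembly and cross-linking rose at week 2. Of 19 genes 17 were tested, and 9 were higher at week 2 against week 0 (median log2 fold change 1.08), where 0 were lower by edgeR, DESeq2 or limma voom and 0 had an unadjusted p under 0.05 on that side, whereas 1 was higher and 4 lower at week 7 (median -0.14). Sparc, a collagen-binding matrix protein, rose 1.99-fold from 99.1 to 197 CPM at week 2 (edgeR adjusted p = 9.28e-06). Bgn, the small proteoglycan biglycan, rose 1.86-fold at week 2 (adjusted p = 1.61e-05) and fell 1.55-fold at week 7 (adjusted p = 0.0003). Dcn, the fibril-binding proteoglycan decorin, rose 1.39-fold at week 2 (adjusted p = 0.00115) and fell 1.57-fold at week 7 (adjusted p = 0.000356). All are against week 0. Fn1, fibronectin, which hepatocytes also secrete, was the member that rose at week 7, 1.42-fold from 795 to 1128 CPM (adjusted p = 3.67e-05).

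Of 9 collagen receptors tested 2 were higher at week 2 against week 0. For week 7 the count called by edgeR, DESeq2 or limma voom was 0, with 1 at an unadjusted p under 0.05 in edgeR (median log2 fold change -0.0030). Ddr1, a collagen-activated tyrosine kinase of epithelial cells, had 0.865 CPM at week 0 and 3.88 at week 2 (edgeR adjusted p = 0.023), and Lair1, an inhibitory collagen receptor of leukocytes, 2.88 and 5.44 CPM (adjusted p = 0.0478). The log2 fold change of Ddr1 was 2.17, and 3.42 without week 0 replicate 2. Its call was lost without either week 2 or either week 7 library (0.0594 to 0.0967) and with only the 4 libraries compared (0.0556). That of Lair1 was lost without week 0 replicate 2 or any week 2 or week 7 library (0.0623 to 0.222) and with only the 4 libraries compared (0.0619). Ddr2, the receptor tyrosine kinase of stromal cells, had 3.72, 5.95 and 2.93 CPM in weeks 0, 2 and 7 and was not called against week 0.

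Collagen-degrading proteases and their inhibitors had 3 higher of 9 tested at week 2 against week 0, and 2 higher and 1 lower at week 7. Mmp14, the membrane collagenase MT1-MMP, rose 2.62-fold at week 2 (edgeR adjusted p = 2.58e-05) and 1.53-fold at week 7 (adjusted p = 0.00526) from 13.5 CPM. Mmp15, another membrane metalloproteinase, rose from 40.7 CPM to 54.4 at week 2 (adjusted p = 0.0142) and 63.0 at week 7 (adjusted p = 0.00271); its week 2 call was lost without week 0 or week 2 replicate 2 (0.0869 and 0.0948). Timp3, a metalloproteinase inhibitor held in the matrix, fell 1.65-fold at week 7 (adjusted p = 0.00398). The inhibitor Timp1, often used as a fibrosis marker, had at most 0.168 CPM as a mean of any week.

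TGF-beta, the best known inducer of collagen transcription, was covered by 16 genes. At week 2 against week 0, 5 were higher and 2 lower, and at week 7, 2 were higher and 1 lower. Tgfbr2, the ligand-binding receptor, rose 1.56-fold at week 2 (edgeR adjusted p = 0.00124) and 1.41-fold at week 7 (adjusted p = 0.00769). Tgfbi, a TGF-beta-induced matrix protein, rose 1.51-fold at week 2 (adjusted p = 0.00192). Smad7, the inhibitory Smad, fell 1.99-fold at week 2 (adjusted p = 0.00466) and 2.19-fold at week 7 (adjusted p = 0.00362).

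Smad3, the signal carrier, had 17.0 CPM at week 0 and 11.9 at week 2 (edgeR adjusted p = 0.033). The Smad3 call was lost without week 0 replicate 1 or any week 2 or week 7 library (0.0522 to 0.181), with total counts only (0.0672) and with only the 4 libraries compared (0.0584).

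Marker lists of the cell types that could carry these transcripts were summed beside the collagens. The summed CPM of 12 hepatic stellate cell markers was 209 to 228, 287 to 303 and 175 to 180 in weeks 0, 2 and 7. Of these markers 4 were higher and 1 lower at week 2 against week 0, and 2 higher and 5 lower at week 7. Counts called in this and the other marker lists stand beside the shares of all tested genes. Those were 9.81% higher and 8.81% lower at week 2, and 7.58% higher and 6.23% lower at week 7.

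Markers of portal fibroblasts and smooth muscle, 10 genes, summed to 9.06 to 10.6, 19.0 to 21.6 and 15.8 to 16.2 CPM in weeks 0, 2 and 7. Of 7 tested, 3 were higher at week 2. The count called by edgeR at week 7 against week 0 was 0, with 4 at an unadjusted p under 0.05, all higher, of which DESeq2 called 2 and limma voom 0. Liver endothelium, 12 genes, summed to 356 to 371, 430 to 462 and 332 to 343 CPM, with 4 higher at week 2 and 1 lower at week 7. Cholangiocyte markers, 7 genes with Sctr at 0 counts, summed to 19.3 to 19.7, 30.3 to 36.8 and 19.2 to 19.5 CPM (of 5 tested, 2 higher at week 2 and 1 higher at week 7). Kupffer cell and macrophage markers, 8 genes, summed to 401 to 412, 554 to 557 and 292 to 299 CPM (5 higher at week 2 and 7 lower at week 7). Hepatocyte markers, 8 genes, summed to 94968 to 95594, 113355 to 119645 and 82412 to 82610 CPM, with 2 higher and 5 lower at week 2 and 2 higher and 4 lower at week 7. Lymphocyte markers, 7 genes, summed to 3.89 to 4.48, 7.38 to 7.90 and 3.30 to 4.75 CPM, with 1 lower at week 7. At week 2 edgeR called 0 of them, with 1 at an unadjusted p under 0.05, which DESeq2 called and limma voom did not.

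All 7 marker lists had a higher sum at week 2 than at week 0, and so had the fibrillar (1.499-fold) and type IV (2.09-fold) collagens. Without Col27a1, which fell, the fibrillar sum was 2.70-fold above week 0. Alb, the albumin gene, carried the hepatocyte sum: it had 65921 and 65060 CPM in the week 0 libraries and 98368 and 92607 in those of week 2, while the median log2 fold change of the 8 hepatocyte markers was -0.16. At week 7 some lists and collagen classes went apart and others lay on the same side of week 0. Relative to week 0, fibrillar collagens stood at 0.617 and 0.651 in the week 7 libraries. Hepatic stellate cell markers were also below week 0, at 0.800 and 0.825, with 5 called lower and 2 higher. Portal fibroblast and smooth muscle markers stood above it, at 1.65 and 1.60, with 0 called by edgeR. Endothelial markers stood at 0.914 and 0.943 and cholangiocyte markers at 0.988 and 1.002, with type IV collagens at 1.25 in both libraries. Spp1 carried the cholangiocyte sum, with a mean of 15.2 CPM at week 0 and 11.9 at week 7 (edgeR adjusted p = 0.0981). Krt19, of the same list, was called 8.95-fold higher at week 7 than at week 0 (edgeR adjusted p = 0.0011), from a low mean of 0.513 CPM. The level sum thus does not mean that each cholangiocyte marker was unchanged. In bulk RNA, more cells of a type and more RNA per cell cannot be told apart, and the part of cell numbers in the collagen changes was not tested.

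**Figure D5:**
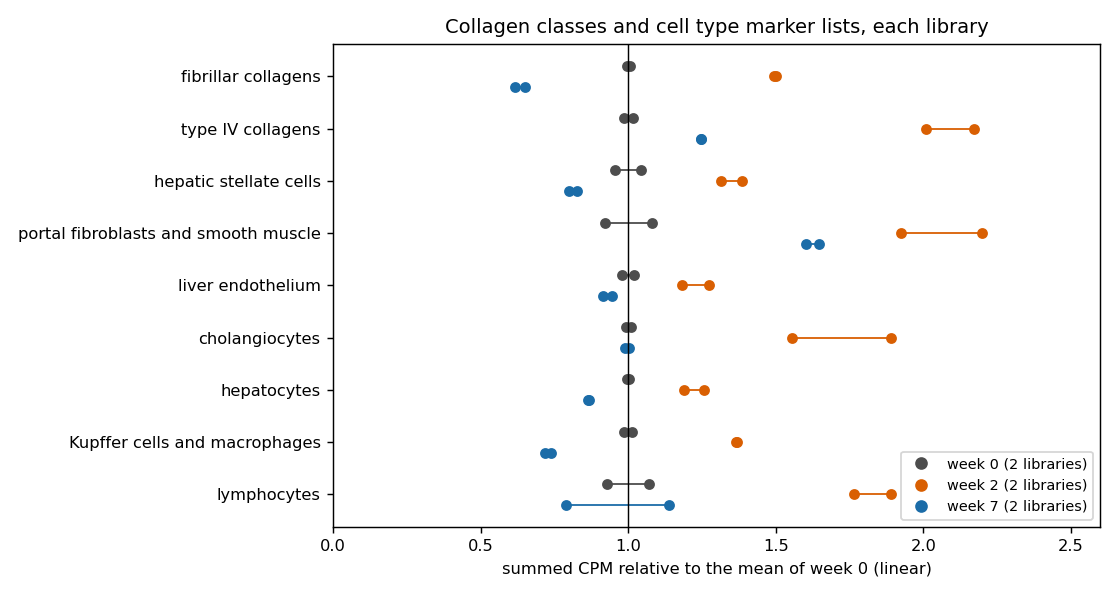
Points are the summed CPM of each library relative to the mean of its 2 week 0 libraries (linear axis, line at 1), for fibrillar and type IV collagens and for 7 marker lists. The fibrillar sum includes Col27a1, and the type IV sum includes Col4a3 and Col4a4. At week 7 fibrillar collagens lie at 0.617 and 0.651, stellate cell markers at 0.800 and 0.825, and type IV collagens at 1.25 in both libraries.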

How the data were processed

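Poly-A RNA was enriched and libraries made with the TruSeq V2 kit, per the labels' protocols; the kit does not mark strand. Bowtie 0.12.2 and mm8 appear, without a role, in the submitters' processing notes; how genes were counted is not given in the sources used here. Values deposited by the authors are unscaled expected counts (estimated counts) for each Ensembl identifier; rounding changed 0 of them. Of 54446 identifiers, 54409 matched GENCODE M21. That annotation is of a later build than mm8, so the table's build is unsure, and printed coordinates and sequences are RefSeq's (GRCm38.p6). Of values from 4 to 43, 68.3% to 69.6% in a library were multiples of 4 or 1 more than such a multiple. On that ground 4 counts were assumed to be 1 read pair. The remaining values had another form, and the assumption was not tested. Counting intervals and the read pairs given for floors rest on it. There were no molecular identifiers, so intervals and floors cover counting error only.

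Genes were kept with filterByExpr (15368), scaled by TMM and fitted with edgeR 4.0.16 (R 4.3.3) by robust quasi-likelihood with all 6 libraries in one fit and a mean for each week (3 residual degrees of freedom), tested 2-sided; SEs come from the F statistic. Plain folds are ratios of mean CPM of 2 libraries. Per-length levels use the transcript with the longest coding sequence. The method was tested on simulated data. Replicates of a week differed by a robust SD of 0.0476 to 0.0738 (log2) among abundant genes. Counting alone gives 0.0263 to 0.0268 at the assumed 4 counts per read pair. Each library was kept as a replicate, but this spread does not show whether they came from separate animals.

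Members, lists and tests were chosen with earlier results of these data known. A collagen gene is named with its value in each library if it averages 1 CPM or more or is called in any comparison. From each of 5 pathway lists, up to 2 called genes in each direction are named for weeks 7 and 2 against week 0; if there is no call, the 2 of lowest p. Outside this rule, and chosen after their values were seen, are Xist, Ddx3y, C430014B12Rik, Col4a6, Col6a6, Col8a2, Col26a1, Timp1, Alb, Spp1, Krt19 and genes named at 0, below the filter or as overlapping. A result that the rule names is not reported here. Alternatives were other scalings and filters, DESeq2 1.42.0, limma voom (3.58.1), only the 4 libraries compared, a replicate block, counts divided by 4, stricter call rules and each library left out.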

Additional observations from a re-analysis of the deposited data

How the results depend on the processing

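Of the 39 calls of collagen genes over the 3 comparisons, 18 held under every alternative run and 22 under every alternative but the stricter call rules, and 0 changed direction. Where a library is left out, the lone library of its week is assumed to vary like the others. Genes higher at week 7 against week 0 numbered 4, but 1 with limma voom, 2 with only the 4 libraries compared, 2 with the replicate block, 1 at an adjusted p under 0.01, 1 when tested against a fold change of 1.5 and 1 to 4 with a library left out. Of the 4 lower genes, 0 passed the test against a fold change of 1.5. With a library left out 3 to 4 genes were lower, always 3 of these 4, since Col5a1 was lost each time, and Col1a1 was added without week 7 replicate 1. At week 2 against week 0 the 14 higher genes became 9 against a fold change of 1.5 and 9 to 13 with a library left out, and the 1 lower gene became 2 with no filter, 2 with DESeq2 and 1 to 2 with a library left out. At week 7 against week 2 the 4 higher genes became 2 with the replicate block, 1 at an adjusted p under 0.01, 1 against a fold change of 1.5 and 1 to 5 with a library left out, and the 12 lower genes 8 to 13. Week 2 replicate 1 was the library whose absence gave the fewest higher genes at week 2 against week 0 (9).

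Uncalled values near 0 changed sign. At week 7 against week 0, Col4a5 had a log2 fold change of -0.82 without week 7 replicate 2 (up to 0.91 without another library), and Col5a3 -0.0049 without week 0 replicate 1 and -0.89 without week 7 replicate 2 (up to 0.94). Col13a1 had 0.014 with total counts only, 0.020 without week 0 replicate 2 and 0.29 without week 7 replicate 2 (down to -0.43), and Col6a3 had 0.034 with limma voom, 0.026 with the replicate block, 0.48 without week 0 replicate 2 and 0.031 without week 7 replicate 2 (down to -0.43). At week 2 against week 0, Col18a1 had 0.0025 with upper-quartile scaling, 0.063 with total counts only, 0.0093 without week 0 replicate 2 and 0.011 without week 2 replicate 1 (down to -0.067). Col12a1 at week 7 against week 2 had -0.048 without week 2 replicate 2 (up to 0.41). The cause was not tested.

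Replicate numbers are shared across weeks, but replicates with the same number did not deviate together (correlation across genes -0.0019, -0.015 and -0.013 for the 3 pairs of weeks), so the block is only a number; with it, 12 genes were higher at week 2 against week 0. With the block, the calls of Col5a1, Col12a1 and Col18a1 at week 7 against week 0 were lost. So were those of Col5a1, Col6a5, Lair1 and Smad3 at week 2 against week 0. At week 7 against week 2 those of Col4a3 and Col5a3 were lost. These losses are not listed beside the genes above. Summed levels moved by at most 3.47% with other scalings. Depth limits genes under about 0.2 CPM.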
